A study of Mus musculus with 18 samples.

Results

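The 51 genes described here drive the cell division cycle: the transcription factors, cyclins and kinase that start and time it, the proteins that copy the genome, the enzymes that supply its nucleotides, and the machinery that segregates the chromosomes and splits the cell. They were chosen by symbol, from a list of S phase, G2/M and mitosis genes. No cut on their values was used, but the choice was made with earlier results of these data known. All 51 were found among the 24419 symbols of the deposited expression table, and all 51 reached an FPKM (a level of fragments corrected for transcript length and for depth) of at least 1 in at least 1 mouse.

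The table comes from hearts of C57BL/6 mice, 8 weeks old and male, in which the proximal left anterior descending coronary artery was tied to cause an acute myocardial infarction (AMI). RNA was taken from the infarcted left ventricle of 3 mice a time, 10 min, 1 h, 6 h, 24 h or 72 h after the ligation, and from 3 control mice, which the study calls sham. Each mouse gave 1 polyA library, so the 18 libraries are separate animals, and every one is bulk tissue: a rise of a gene can come from more cells of a type or from more RNA per cell, and these cannot be told apart here. The ligation was done under pentobarbital, and the labels name no other treatment and no altered allele for any group.

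A resting cell that enters the cycle first makes D-type cyclins, which free the E2F factors to switch on replication genes such as the Mcm helicase subunits, and only later, with FOXM1 and cyclin B, the genes of mitosis. The adult heart muscle cell hardly divides, whereas fibroblasts, endothelial cells and leukocytes of the heart can. In promoters of this class, replication genes are known for E2F motifs, and mitotic genes for a CHR (cell cycle genes homology region) together with CCAAT boxes.

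Promoters of RefSeq (GRCm38.p6) were available for 41 of the 51 genes, as windows of 300 bases that run from 250 before the transcription start to 50 after it, 5′ to 3′ on the gene's strand. 6 of them are printed as examples of windows with and without the motifs counted below. Among the genes with a window, Top2a had the highest 72 h mean of the replication, nucleotide and chromosome genes, Ccnb2 of the cyclins and CDK, Bub1b of the kinases and checkpoint genes, and Nusap1 of the spindle and cytokinesis genes. Mcm5 and Cenpf were added after their values were seen. Capitals mark the CHR (TTTGAA or TTCGAA), the CCAAT box (CCAAT) and the E2F motif (TTTCCCGC, TTTGGCGC, TTTGCCGC or TTTCGCGC), each on either strand.
Top2a (chr11:99024140-99024439, minus strand): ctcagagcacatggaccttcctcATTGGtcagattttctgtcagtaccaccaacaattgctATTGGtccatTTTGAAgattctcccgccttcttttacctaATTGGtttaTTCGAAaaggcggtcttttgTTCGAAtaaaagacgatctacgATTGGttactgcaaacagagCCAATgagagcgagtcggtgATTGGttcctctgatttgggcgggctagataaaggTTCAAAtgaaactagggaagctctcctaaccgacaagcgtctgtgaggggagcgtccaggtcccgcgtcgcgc
Ccnb2 (chr9:70421505-70421804, minus strand): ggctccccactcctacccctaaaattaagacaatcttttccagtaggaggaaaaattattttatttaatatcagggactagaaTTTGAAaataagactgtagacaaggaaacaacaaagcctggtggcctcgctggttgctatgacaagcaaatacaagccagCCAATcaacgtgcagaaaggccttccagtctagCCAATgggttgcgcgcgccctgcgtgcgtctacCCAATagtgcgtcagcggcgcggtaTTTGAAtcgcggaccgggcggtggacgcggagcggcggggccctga
Bub1b (chr2:118597961-118598260, plus strand): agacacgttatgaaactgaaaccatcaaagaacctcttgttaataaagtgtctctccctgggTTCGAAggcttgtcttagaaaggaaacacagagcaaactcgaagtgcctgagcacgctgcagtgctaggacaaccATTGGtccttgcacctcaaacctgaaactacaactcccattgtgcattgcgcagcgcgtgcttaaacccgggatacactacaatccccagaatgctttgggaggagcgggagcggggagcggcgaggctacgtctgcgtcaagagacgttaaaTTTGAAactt
Nusap1 (chr2:119618048-119618347, plus strand): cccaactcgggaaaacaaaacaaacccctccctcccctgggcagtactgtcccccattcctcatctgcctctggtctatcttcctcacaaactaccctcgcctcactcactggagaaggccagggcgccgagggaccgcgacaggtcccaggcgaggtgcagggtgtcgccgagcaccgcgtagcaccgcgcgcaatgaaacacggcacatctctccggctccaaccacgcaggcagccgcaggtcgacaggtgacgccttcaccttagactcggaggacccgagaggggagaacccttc
Mcm5 (chr8:75109259-75109558, plus strand): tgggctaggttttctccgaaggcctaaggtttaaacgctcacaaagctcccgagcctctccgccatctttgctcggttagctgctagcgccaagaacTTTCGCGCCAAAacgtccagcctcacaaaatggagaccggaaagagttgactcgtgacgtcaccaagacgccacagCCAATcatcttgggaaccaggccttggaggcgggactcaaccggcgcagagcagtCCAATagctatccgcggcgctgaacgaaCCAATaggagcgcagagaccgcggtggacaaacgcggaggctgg
Cenpf (chr1:189688037-189688336, minus strand): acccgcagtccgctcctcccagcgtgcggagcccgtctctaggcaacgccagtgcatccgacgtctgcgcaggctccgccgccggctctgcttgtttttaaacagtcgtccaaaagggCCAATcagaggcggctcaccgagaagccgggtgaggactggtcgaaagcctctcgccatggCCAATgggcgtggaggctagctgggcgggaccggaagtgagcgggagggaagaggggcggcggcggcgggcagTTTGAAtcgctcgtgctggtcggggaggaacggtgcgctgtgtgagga

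The Top2a window held 4 CHR matches and 6 CCAAT boxes, the Ccnb2 window 2 CHR matches and 3 CCAAT boxes, and the Bub1b window 2 CHR matches and 1 CCAAT box. In the Mcm5 window 3 CCAAT boxes and 2 E2F matches were found, and the 2 E2F matches shared letters, as 1 run of capitals. The Cenpf window had 1 CHR match and 2 CCAAT boxes, and the Nusap1 window none of the 3 motifs. Among 28 windows of the mitotic roles (26 genes), 23 or 82.1% held a CHR, against 2 of the 11 windows of replication and nucleotide genes (18.2%) and 19.2% of all 32851 windows of the reference. A CHR and a CCAAT box stood together in 71.4% of the mitotic windows, 18.2% of the replication and nucleotide windows and 7.52% of all. CCAAT boxes alone did not separate the classes, with 75.0% of the mitotic, 81.8% of the replication and nucleotide and 37.4% of all windows. The E2F motif gave the opposite order: 4 of 11 replication and nucleotide windows (36.4%), 0 of 28 mitotic windows and 2.26% of all. These are matches of letters and no measure of binding, the motifs were chosen with the expression pattern known, and 3 genes had 2 windows each.

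**Figure D1:**
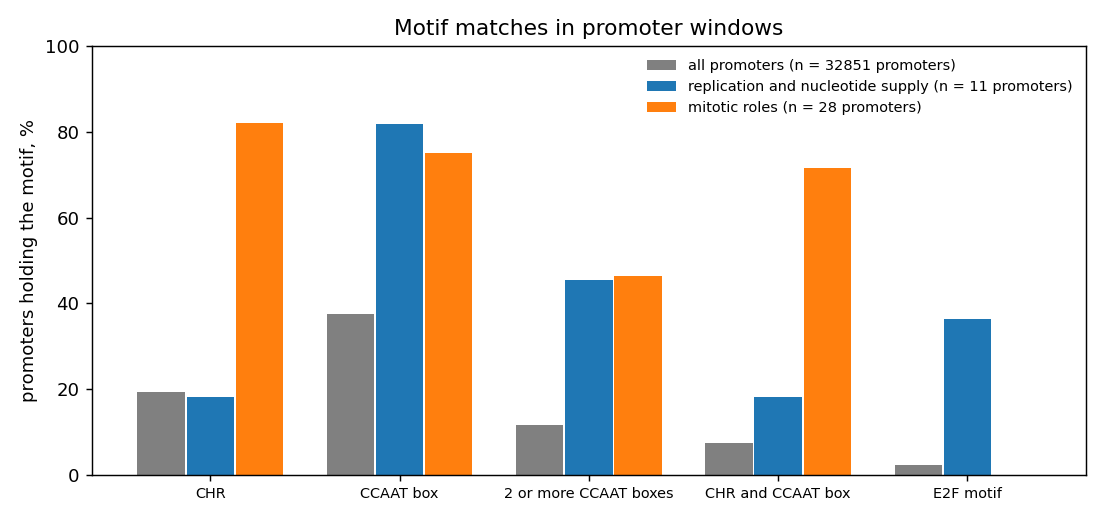
Percent of promoter windows (y axis) that held each motif (x axis), for all 32851 windows of the reference (grey), the 11 of replication and nucleotide supply genes (blue) and the 28 of mitotic genes (orange). The CHR stood in 82.1% of the mitotic windows and 18.2% of the replication and nucleotide windows, and the E2F motif in none of the mitotic and 36.4% of the replication and nucleotide windows.

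The sum of all FPKM per library lay between 542418 and 600467. Depth, read from the lowest values of genes up to an FPKM of 0.3, was between 0.812 and 1.32 of that of the first control mouse, with a median of 1.301 at 72 h. No pair of libraries was identical. The tissue label was borne out by the markers of cardiomyocytes, whose 7 genes were all detected in every mouse and summed to an FPKM of 46985 to 50531 in the control mice. Markers of cell types moved along the series. At 72 h that cardiomyocyte sum was 16794 to 20970, with all 7 genes lower, while the 6 fibroblast genes rose together from sums of 233 to 252 to sums of 2124 to 2860, and the 7 macrophage and monocyte genes from 139.5 to 157 to between 1240 and 1527. The 5 neutrophil genes summed to 2.32 to 4.99 in control, 115.7 to 997 at 6 h and 49.6 to 60.2 at 72 h, the 6 endothelial genes to 544 to 585 and 458 to 571, the 4 T cell genes to at most 0.882 and 3.14, the 4 B cell genes to at most 2.35 and 7.03, and the 6 erythroid genes to 2234 to 4133 and 1483 to 2199. At 72 h 4 of 5 neutrophil, 1 of 1 T cell and 2 of 2 B cell genes tested were called higher, and 3 of 6 endothelial and 2 of 5 erythroid genes lower. Already at 24 h 6 of 7 macrophage and monocyte, 4 of 5 neutrophil and 2 of 6 fibroblast genes were called higher, and 1 of 6 fibroblast, 3 of 6 endothelial and 4 of 7 cardiomyocyte genes lower. Among all genes tested, the share with a higher call was 53.1% for 72 h against 26.2% for 24 h. For lower calls it was 24.2% against 11.4%. The fibroblast counts of 24 h are near these shares, and the marker lists are small. Some libraries listed Retnlg (neutrophil), Cd3e and Cd3d (T cell) and Hbb-bt and Slc4a1 (erythroid) at 0, and no other marker was at 0 in any library. The part of these shifts in the levels of the cell cycle genes was not tested.

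In the control heart most of these genes were close to silent. Control means of FPKM were under 1 for 39 of the 51 and at least 1 for 12. The highest were Ccnd1, the D-type cyclin, with 22.6, 19.9 and 29.2, and Cenpa, the histone H3 variant of centromeres, with 25.6, 22.1 and 22.7. They stood well above Stmn1 (stathmin, which destabilises microtubules), with 7.22, 5.89 and 6.73, and Pcna (the sliding clamp of DNA polymerase), with 5.85, 5.205 and 5.09. 11 genes had an FPKM of at least 1 in every one of the 18 mice, 31 reached it in some mouse before 72 h, and 20 reached it only at 72 h. For 9 of the genes a library before 72 h listed an FPKM of 0.

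**Figure D2:**
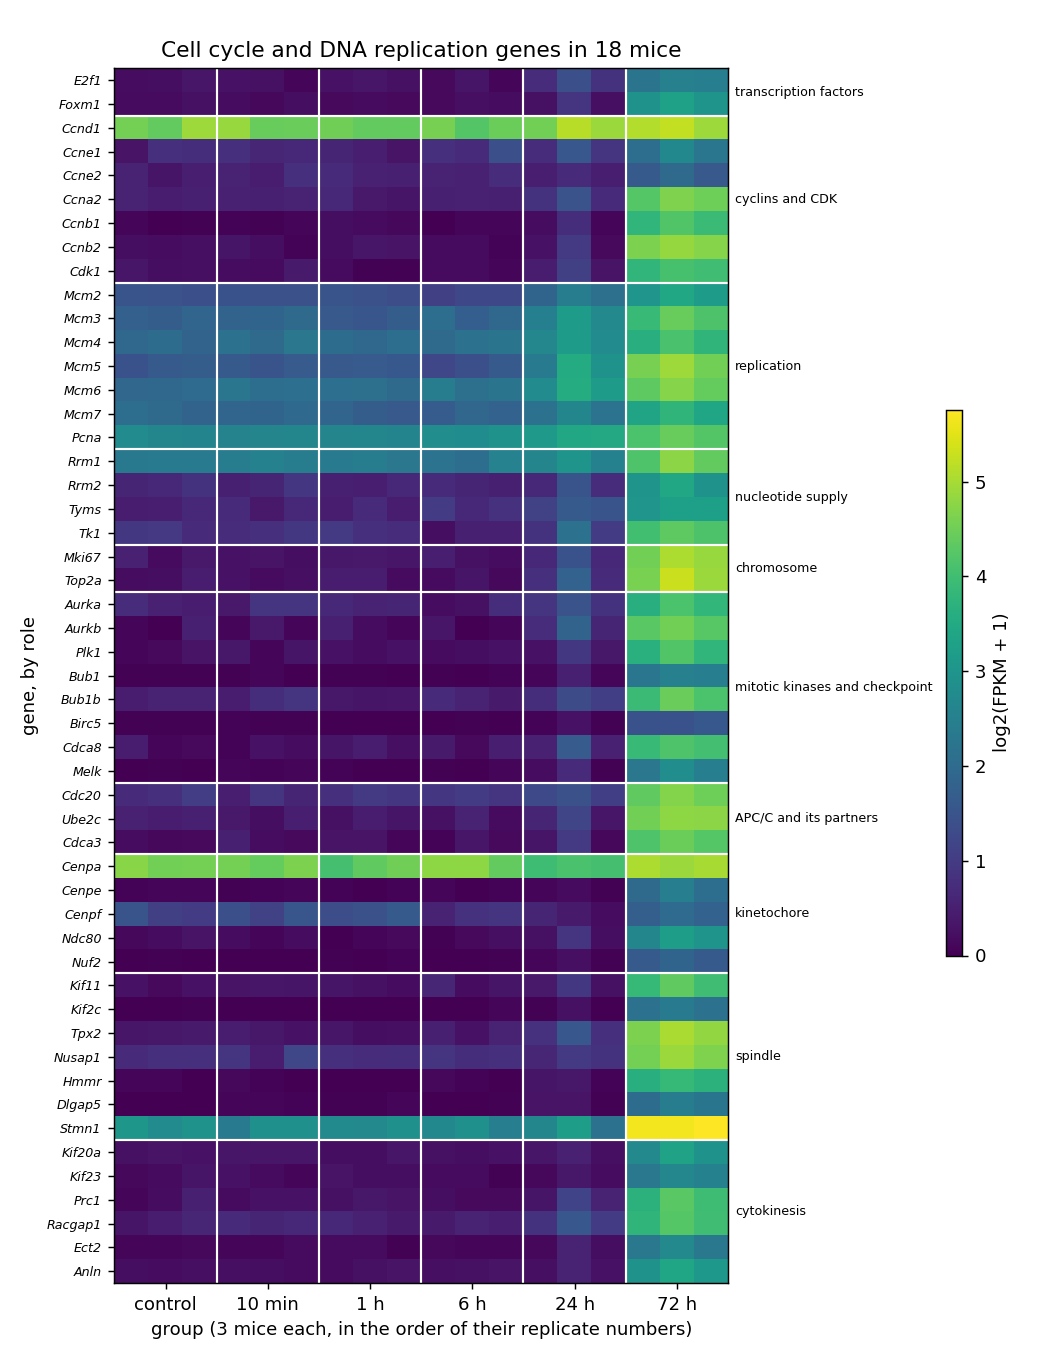
Level of each of the 51 genes (rows, grouped by role) in each of the 18 mice (columns, 3 per group), as log2(FPKM + 1). Ccnd1 and Cenpa are bright in every mouse, the replication genes brighten at 24 h, and most genes of the other roles are bright at 72 h alone.

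Nothing in this set passed the test in the first hour. Differences between groups of 3 mice were tested throughout with limma on log2(FPKM + 1), two-sided, and a gene was called at a Benjamini-Hochberg adjusted p under 0.05 over all genes tested. At 10 min 0 of 51 genes were called, against 0.248% of all 13297 genes tested called higher and 0.0978% lower, and 1 gene had an unadjusted p under 0.05. All 3 mice lay above all control mice for 6 genes, against 12.2% of all genes, and below all control mice for 0 genes. At 1 h again 0 of 51 were called, against 0.669% higher and 0.0526% lower, and 4 had an unadjusted p under 0.05. Here all 3 mice lay below all control mice for 7 genes, against 10.9% of all genes, and above all control mice for 2 genes. The shares of all genes below control at 10 min and above control at 1 h were not counted. Over the 51 genes, the summed FPKM ran from 82.4 to 95.4 in the control mice, 82.8 to 92.1 at 10 min and 80.0 to 81.4 at 1 h. Ccnd1 and Cenpa, with control means of 23.9 and 23.4, weigh most in these sums. Cenpa had the lowest log2 fold change of the 51 genes at 1 h (-0.30, limma adjusted p = 0.357). The median FPKM of the 51 genes ran from 0.228 to 0.383 in control, 0.264 to 0.317 at 10 min and 0.236 to 0.306 at 1 h.

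At 6 h Tk1 (thymidine kinase, which salvages thymidine for DNA synthesis) was the only gene called, and it was lower. Its FPKM was 0.903, 0.944 and 0.618 in the control mice and 0.157, 0.413 and 0.423 at 6 h. The groups did not overlap, and the log2 fold change was -0.45 ± 0.12 (SE), with a limma adjusted p of 0.0291. The call was lost without control mouse 1 or 2, or without the first 6 h mouse (adjusted p up to 0.0981 when single mice were left out), and with all 18 mice in one fit (adjusted p = 0.149). 0 of 51 genes were called higher and 1 of 51 lower, against 11.6% and 16.8% of all genes, and 5 had an unadjusted p under 0.05. Among those not called was Cenpf, a large kinetochore protein, at 1.84, 1.12 and 1.03 in control and 0.478, 0.768 and 0.820 at 6 h, where all 3 mice lay below all control mice (limma adjusted p = 0.0621). Ccnb2, Cdk1 and Mcm2 also lay below every control mouse at 6 h without a call, which makes 5 genes of 51 with Tk1 and Cenpf, against 30.2% of all genes. Mcm6, Pcna, Tyms and Anln, named after their values were seen, lay above every control mouse, 4 genes of 51 against 18.6% of all genes. None was called, and Mcm6 was called higher under median-of-ratios scaling (adjusted p = 0.0445) and quantile normalization (adjusted p = 0.0460). The median log2 fold change of the 51 genes was -0.00068, against -0.08 over all genes tested.

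At 24 h most replication genes were called higher, and few mitotic genes were. 6 of the 7 replication genes were called higher, and all 7 had every 24 h mouse above every control mouse, as had 26 of the 51 genes and 39.3% of all genes tested. Of all 51 genes 11 were called higher and 2 lower, against 26.2% and 11.4% of all genes tested, so that the share of the set called higher (21.6%) was near the background and that of the replication genes was 85.7%. The set holds 20 genes that reached an FPKM of 1 only at 72 h, of which 0 were called at 24 h. Of the other 31, a cut that itself uses the 24 h mice, 11 were called higher (35.5%). The median log2 fold change was 0.33 for the 51 genes, 0.94 for the 7 replication genes and 0.13 over all genes tested. With a pseudocount of 0.1 these medians were 0.90 for the 51 genes and 0.16 over all genes, since a pseudocount of 1 compresses the changes of low genes. As a plain ratio of mean FPKM, the median of 24 h to control was 3.07 for the 31 mitotic genes and 2.27 for the replication genes. The mitotic ratios rest mostly on low control values and lean on the second 24 h mouse. The median FPKM of the mitotic genes was 0.134, 0.123 and 0.242 in the control mice and 0.273, 0.911 and 0.216 at 24 h. For the replication genes it was 2.75, 2.83 and 2.57 in control and 4.57, 8.15 and 5.85 at 24 h. Whether the relative change differed between the roles was not tested. Besides the replication genes the called genes were E2f1, Tyms, Bub1b, Tpx2 and Racgap1 (higher) and Cenpa and Cenpf (lower). Under quantile normalization E2f1, Bub1b, Tpx2 and Racgap1 lost their calls, and Mcm2 to Mcm6, Pcna, Tyms, Cenpa and Cenpf were called.

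The Mcm2 to Mcm7 proteins form the ring helicase that opens the DNA ahead of the replication fork. Mcm5 had the largest rise, from 1.74, 2.08 and 2.25 in control to 4.16, 10.6 and 6.67 at 24 h, so that even the lowest 24 h mouse was well above the highest control mouse. Its log2 fold change was 1.36 ± 0.28 (SE), with a limma adjusted p of 0.0124. Mcm6 followed, at 2.75, 2.83 and 3.04 and 5.84, 10.8 and 7.90 (log2 fold change 1.21 ± 0.19, adjusted p = 0.00667). Mcm3 went from 2.38, 2.27 and 2.69 to 4.57, 8.15 and 5.55 (log2 fold change 1.01 ± 0.19, adjusted p = 0.00936). In both genes the groups were apart. Mcm4 was at 2.77, 3.12 and 2.54 in control and 5.31, 8.03 and 5.85 at 24 h (log2 fold change 0.94 ± 0.15, adjusted p = 0.00699). Mcm2 was at 1.84, 1.77 and 1.64 and 2.61, 4.34 and 3.34 (log2 fold change 0.67 ± 0.15, adjusted p = 0.0173). The second 24 h mouse was the highest for each of these helicase genes.

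Pcna rose from 5.85, 5.205 and 5.09 to 7.59, 9.99 and 10.1 (log2 fold change 0.67 ± 0.13, adjusted p = 0.0107), and here the third 24 h mouse was marginally above the second. Mcm7 alone among the replication genes was not called, at 3.21, 2.95 and 2.57 and 3.48, 5.22 and 3.60 (log2 fold change 0.37 ± 0.15, adjusted p = 0.0936). Reads of Mcm7 cannot be told from those of the opposite-strand gene Ap4m1 over 7.25% of its exon bases unless strand was used, which the sources used here do not state. The same holds for the other overlaps given below.

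E2f1, the transcription factor that switches on S phase genes, was at 0.150, 0.165 and 0.282 in control and 0.647, 1.67 and 0.787 at 24 h. All 24 h mice were above all control mice, with a log2 fold change of 0.73 ± 0.19 (SE) and a limma adjusted p of 0.0239. Foxm1, the factor of the mitotic genes, was at 0.116, 0.119 and 0.190 and 0.188, 0.839 and 0.173, a high second mouse and 2 mice within the range of control (adjusted p = 0.284). Tyms (thymidylate synthase) was the nucleotide gene called at 24 h. It stood at 0.380, 0.389 and 0.563 in control and 1.19, 2.1004 and 1.81 at 24 h (log2 fold change 0.89 ± 0.15, adjusted p = 0.00741), with no overlap.

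Of the 31 genes with mitotic roles, 3 were called higher at 24 h, against 26.2% of all genes tested. In 14 of the 31 every 24 h mouse was above every control mouse, against 39.3% of all genes tested. Bub1b, a kinase of the spindle checkpoint, was at 0.366, 0.482 and 0.490 in control and 0.692, 1.52 and 1.09 at 24 h (log2 fold change 0.52 ± 0.16, adjusted p = 0.0370). Tpx2, which nucleates spindle microtubules, was at 0.265, 0.301 and 0.343 and 0.771, 1.96 and 0.747 (log2 fold change 0.68 ± 0.21, adjusted p = 0.0398). Racgap1, a subunit of the complex that places the cleavage furrow, was at 0.247, 0.363 and 0.532 and 0.792, 1.94 and 1.01 (log2 fold change 0.67 ± 0.19, adjusted p = 0.0338). In all 3 the groups were apart and the second mouse was the highest.

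The 2 genes that fell at 24 h both belong to the centromere. Cenpa (chr5:30666777-30674830 in mm10, plus strand) was at 25.6, 22.1 and 22.7 in control and 14.7, 16.3 and 15.6 at 24 h. Every 24 h mouse lay below every control mouse, as in Cenpf and in 18.9% of all genes, with a log2 fold change of -0.56 ± 0.09 (SE) and a limma adjusted p of 0.00693. Cenpf (chr1:189640606-189688086, minus strand) was at 1.84, 1.12 and 1.03 in control and 0.522, 0.342 and 0.150 at 24 h, again without overlap (log2 fold change -0.79 ± 0.17, adjusted p = 0.0141). Both calls held under every scaling and with any 1 mouse left out. The other 3 kinetochore genes, Cenpe, Ndc80 and Nuf2, were not called, with means of 0.0697, 0.391 and 0.0817 at 24 h against 0.0516, 0.155 and 0.0179 in control.

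The 24 h mice were not alike. The second had the highest level of the 3 in 49 of the 51 genes, against 32.4% of all genes tested. It was above the highest control mouse in 49 genes, the first 24 h mouse in 35 and the third in 32, and it had 29 genes at an FPKM of at least 1, against 13 and 16. The share of all genes above control was not counted for single mice, so these counts have no background. In 39.3% of all genes tested every 24 h mouse was above every control mouse. Top2a, the topoisomerase that untangles sister DNA, was at 0.744, 2.49 and 0.630 in the 3 mice, and Aurkb, a kinase that corrects chromosome attachment, at 0.661, 2.55 and 0.521. For both genes the other two mice were also above all control mice, and neither was called (limma adjusted p = 0.0571 and 0.0763). In the same 3 mice the fibroblast sum was 247, 313 and 237, the macrophage and monocyte sum 230.4, 273 and 276, the neutrophil sum 209, 42.6 and 965, the cardiomyocyte sum 37950, 36336 and 30480, and the relative depth 1.12, 1.24 and 0.865. Their part in the spread was not tested. Without the second mouse 11 genes were still called higher, 10 of them from the same list, with Top2a in the place of Bub1b. The count was 18 without the third 24 h mouse, and 5, 5 and 6 without control mouse 1, 2 or 3. Mcm3, Mcm4, Mcm6 and Tyms were called in every one of these fits.

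Between 6 h and 24 h 6 genes were called higher, E2f1 and Mcm2 to Mcm6, and Cenpa was called lower, against 12.5% and 1.94% of all genes tested. Mcm5 went from 1.33, 1.64 and 2.09 to 4.16, 10.6 and 6.67 (log2 fold change 1.53 ± 0.28, limma adjusted p = 0.0231) with no overlap. These calls were less stable than those against control: 0 of the 51 genes were called higher without any single 6 h mouse or without the second 24 h mouse, and 10 without the first 24 h mouse.

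**Figure D3:**
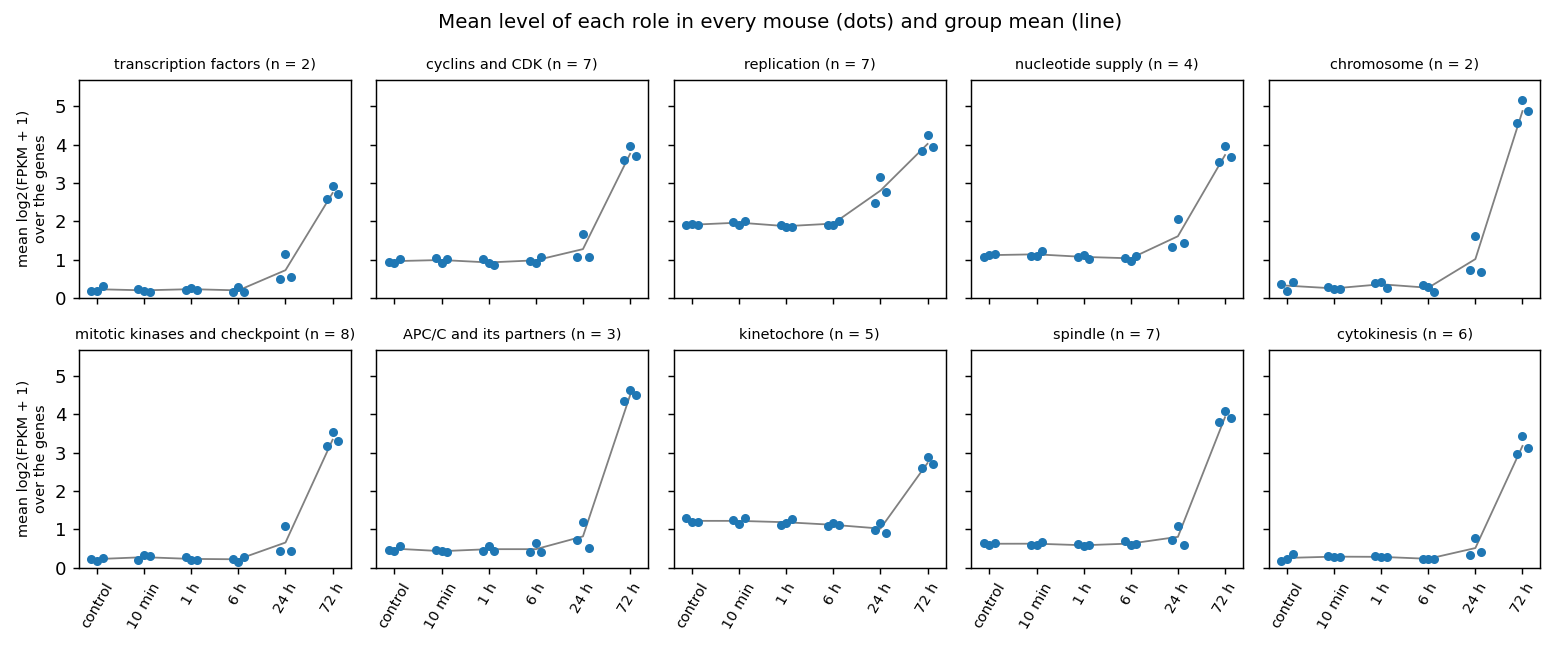
Mean log2(FPKM + 1) over the genes of each role (y axis) in every mouse (dots) and as the group mean (line), by group (x axis). The replication genes rise at 24 h and again at 72 h, and the roles of mitosis rise mainly at 72 h, with the second 24 h mouse above the other two.

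By 72 h all 51 genes had risen. Every gene was called higher than control, with no overlap of the groups in any of them (55.1% of all genes tested were higher with no overlap). Of the 51, 20 passed the filter only through their 72 h mice, which favours their calls here, and they also count in the ranks below. The remaining 31 were all called higher, with a median log2 fold change of 3.08. Without the filter all 51 were called higher. The background was high as well, with 53.1% of all 13329 genes tested called higher and 24.2% lower, and the count of 51 has to be read against it. The median log2 fold change was 2.74 for the 51 genes and 0.29 over all genes tested (4.67 and 0.35 with a pseudocount of 0.1). Ranked by log2 fold change among all genes tested, 17 of the 51 were in the top 1%, 34 in the top 5% and 44 in the top 10%. The summed FPKM of the 51 genes was 662, 855 and 727 in the 3 mice, against 82.4 to 95.4 in control. Higher and lower calls over all genes were 7081 and 3226 as deposited, 5243 and 4752 with median-of-ratios scaling (median log2 fold change of all genes 0.04) and 4278 and 5794 with quantile normalization (-0.12), while 49 and 48 of the 51 genes were called higher under these scalings. The genes that lost their call were Ccnd1 and Cenpa under both scalings and Cenpf under quantile normalization.

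Both transcription factors were up at 72 h. Foxm1 reached 6.67, 8.87 and 6.85, far above every earlier mouse, with a log2 fold change against control of 2.88 ± 0.11 (SE) and a limma adjusted p of 9.96e-08. E2f1 reached 3.64, 4.71 and 4.54 (log2 fold change 2.14 ± 0.11, adjusted p = 3.66e-07). Their order of change differed: the mean of E2f1 at 24 h stood at 20.4% of its way from control to 72 h, and that of Foxm1 at 3.53%.

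The cyclins of late phases rose most. Ccnb2, the cyclin B of the G2/M switch, was at 0.156, 0.144 and 0.183 in control, 0.132, 0.125 and 0.0373 at 6 h, then 23.5, 27.6 and 25.4 by 72 h. The 6 h mice lay below and the 72 h mice far above all control mice (log2 fold change at 72 h 4.51 ± 0.08 (SE), limma adjusted p = 8.73e-09). Ccna2, the cyclin of S phase and G2, went from 0.476, 0.369 and 0.430 to 17.9, 24.2 and 21.3 (log2 fold change 3.95 ± 0.11, adjusted p = 2.35e-08). Cdk1, the kinase that these cyclins activate, was at 0.265, 0.157 and 0.178 in control, 0.127, 0.0252 and 0.0252 at 1 h, then 12.9, 16.0 and 14.9 by 72 h (log2 fold change at 72 h 3.70 ± 0.10, adjusted p = 1.94e-08). The 1 h values were below all control mice but were not called (adjusted p = 0.362). Ccnb1 followed, from a mean of 0.0262 to 14.8. The E-type cyclins, which start S phase, rose less, Ccne1 from 0.545 to 4.18 and Ccne2 from 0.366 to 2.38 in mean FPKM (log2 fold changes 1.74 ± 0.18 and 1.298 ± 0.12). In Ccne2 17.4% of exon bases overlap Ints8 on the opposite strand, and in Ccna2 12.5% overlap Exosc9.

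Ccnd1, which acts first in the cycle, had the smallest change of the cyclins. It was abundant throughout, at 22.6, 19.9 and 29.2 in control, 22.0, 34.0 and 28.7 at 24 h, then 33.1, 36.5 and 29.3 by 72 h. The 72 h values only just cleared the highest control mouse, with a log2 fold change of 0.46 ± 0.14 (SE) and a limma adjusted p of 0.0138, which was lost under median-of-ratios scaling (log2 fold change 0.16, adjusted p = 0.293) and quantile normalization (0.19, adjusted p = 0.232). It was the one gene not called between 24 h and 72 h (0.23 ± 0.17, adjusted p = 0.303). Over 23.4% of its exon bases it overlaps LTO1 on the opposite strand.

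The replication genes rose further by 72 h, the last time sampled. Mcm5 (chr8:75109569-75128439, plus strand) reached 22.9, 29.3 and 22.1 and Mcm6 19.0, 25.3 and 20.02. Against control these were log2 fold changes of 3.08 ± 0.12 and 2.52 ± 0.11 (SE; limma adjusted p = 9.68e-08 and 1.62e-07). Every replication gene was also higher at 72 h than at 24 h. For Mcm3 the 72 h values were 13.8, 20.6 and 16.9, and its 1 h values, 2.04, 1.90 and 2.25, had been below all control mice without a call (adjusted p = 0.458). For Mcm2 they were 7.05, 9.95 and 7.90, after 1.14, 1.37 and 1.36 at 6 h, below all control mice (adjusted p = 0.0641). At 24 h the means of the 7 genes had covered 15.9% (Mcm7) to 33.9% (Mcm4) of the distance from control to 72 h, with a median of 25.6%. In the single 24 h mice that median was 14.5%, 39.0% and 24.3%.

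The nucleotide genes were all up at 72 h. Tk1 reached 15.2, 19.1 and 16.8 at 72 h, with a log2 fold change of 3.31 ± 0.11 (SE) against control and 3.76 ± 0.13 against 6 h (limma adjusted p = 4.48e-08 and 4.02e-07). It had thus been below all control mice at 6 h and was above all of them at 72 h. Tyms reached 7.08, 8.58 and 8.57 (log2 fold change 2.65 ± 0.10, adjusted p = 9.41e-08). Rrm1 and Rrm2, the subunits of ribonucleotide reductase, had 72 h means of 20.9 and 7.85 against 4.16 and 0.628 in control. At 24 h the 4 genes were at 5.42% (Rrm2) to 16.5% (Tyms) of the rise, with a median of 7.24%.

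Top2a and Mki67, the genes of the chromosome role, rose steeply. Top2a (chr11:98992943-99024189, minus strand), whose window above held the most motif matches of those printed, rose from 0.134, 0.155 and 0.359 in control to 23.1, 38.2 and 28.8. On the log2(FPKM + 1) scale no other member had a larger fold change (4.65 ± 0.17 (SE), limma adjusted p = 6.73e-08), and its rank was 33 of 13329 genes. As plain ratios of mean FPKM, which rest on control values near 0, Melk, Ccnb1 and Kif2c changed 685, 566 and 540 times and Top2a 139 times. Mki67, the Ki-67 protein that coats mitotic chromosomes, rose from 0.444, 0.121 and 0.304 to 22.0, 32.2 and 28.3 (log2 fold change 4.46 ± 0.15, adjusted p = 4.45e-08).

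All 8 kinase and checkpoint genes were up at 72 h. Aurkb went from 0.0647, 0 and 0.426 in control to 18.5, 22.1 and 18.3 (log2 fold change 4.16 ± 0.14 (SE), limma adjusted p = 5.39e-08). Cdca8, borealin, a partner of Aurkb, went from 0.387, 0.0788 and 0.104 to 13.9, 17.1 and 15.4 (log2 fold change 3.79 ± 0.12, adjusted p = 4.06e-08). Birc5, survivin, a further protein of that complex, had the lowest 72 h mean of the 51 genes, and was at 0.0159, 0.0264 and 0.0179 in control, 0.00955, 0.00913 and 0 at 1 h, then 1.74, 1.75 and 1.997 by 72 h (log2 fold change 1.47 ± 0.08, adjusted p = 8.75e-07). All 3 were apart from control at 72 h. Bub1b was at 0.292, 0.245 and 0.280 at 1 h, below control without a call (adjusted p = 0.332), and at 14.3, 20.8 and 16.4 at 72 h (log2 fold change 3.64 ± 0.13, adjusted p = 6.21e-08). The 72 h means of the kinases Aurka, Plk1, Bub1 and Melk were 13.5, 13.9, 4.31 and 4.83, against 0.496, 0.143, 0.0217 and 0.00706 in control.

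The genes around the anaphase-promoting complex (APC/C), the ubiquitin ligase that ends mitosis, had some of the steepest late rises. Ube2c, its E2 enzyme, was at 0.437, 0.359 and 0.419 in control, 0.201, 0.351 and 0.249 at 1 h, then 22.1, 26.5 and 26.1 by 72 h (log2 fold change 4.199 ± 0.09 (SE), limma adjusted p = 1.10e-08). Its 1 h values were below all control mice and were not called (adjusted p = 0.431), and 22.8% of its exon bases overlap Tnnc2 on the opposite strand. Cdca3, a trigger of mitotic entry, went from 0.133, 0.0865 and 0.114 to 17.1, 21.2 and 17.8 (log2 fold change 4.14 ± 0.10, adjusted p = 1.38e-08). Cdc20, the activator of APC/C, went from a mean of 0.817 to 22.0. At 24 h the 3 had covered 1.17% to 2.78% of the way.

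The kinetochore genes parted into 2 patterns. Ndc80, which binds microtubule ends, rose from 0.0908, 0.136 and 0.238 to 5.28, 8.22 and 6.88 (log2 fold change 2.74 ± 0.14 (SE), limma adjusted p = 4.28e-07). Cenpe, a kinetochore motor, was at 0.0402, 0.0493 and 0.0652 in control, 0.0386, 0.00922 and 0.0368 at 1 h, then 2.95, 4.48 and 3.25 by 72 h (log2 fold change 2.102 ± 0.13, adjusted p = 1.11e-06). Its 1 h values were below control without a call (adjusted p = 0.852), and Nuf2, the partner of Ndc80, had 72 h values of 2.08, 2.61 and 2.12. Cenpa and Cenpf instead came back from their low at 24 h to above control, with smaller log2 fold changes than Ndc80, Cenpe and Nuf2. Cenpa was at 32.2, 28.6 and 31.3 at 72 h, the smallest change of the 51 genes against control (log2 fold change 0.38 ± 0.08, adjusted p = 0.00212), and that call was lost under median-of-ratios scaling (0.08, adjusted p = 0.441) and quantile normalization (0.09, adjusted p = 0.365). Cenpf was at 2.34, 3.06 and 2.50 (log2 fold change 0.65 ± 0.14, adjusted p = 0.00277), and quantile normalization took its call too (0.09, adjusted p = 0.611). The rise from 24 h to 72 h was called for both, at 0.94 ± 0.10 for Cenpa and 1.45 ± 0.14 for Cenpf (adjusted p = 3.62e-04 and 3.08e-04).

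**Figure D4:**
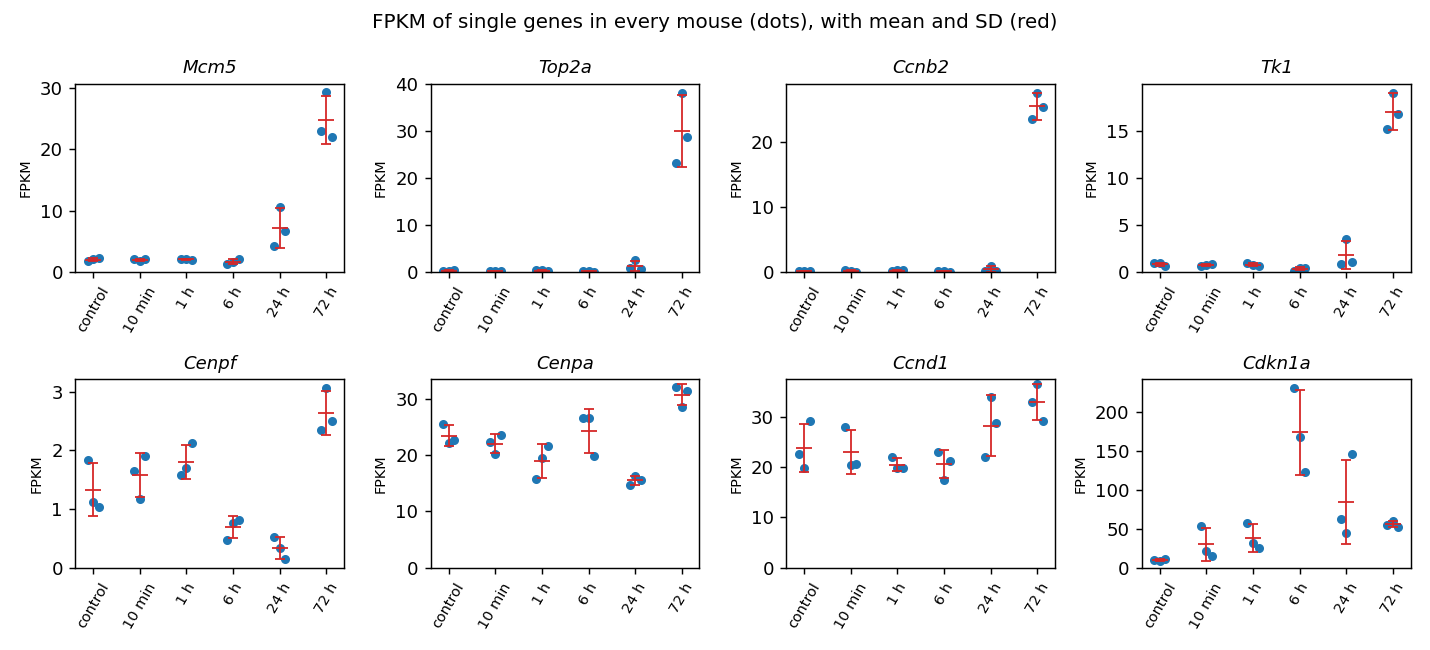
FPKM (y axis) of 7 of the cell cycle genes and of the CDK inhibitor gene Cdkn1a in every mouse (blue dots), with the mean and SD of each group (red), by group (x axis). Mcm5 is up at 24 h, Top2a and Ccnb2 mainly at 72 h, Tk1 is lowest at 6 h, Cenpf and Cenpa are lowest at 24 h, Ccnd1 is high throughout, and Cdkn1a peaks at 6 h.

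The spindle genes Tpx2 and Nusap1, both of which bind spindle microtubules, rose to near equal levels. Tpx2 reached 23.7, 31.6 and 27.2 at 72 h (log2 fold change against control 4.44 ± 0.11 (SE), limma adjusted p = 1.44e-08). Nusap1 (chr2:119618298-119651244, plus strand), in whose window no motif matched, went from 0.632, 0.726 and 0.720 in control to 0.544, 0.958 and 0.799 at 24 h, then 22.6, 28.6 and 24.0 by 72 h (log2 fold change at 72 h 3.94 ± 0.10, adjusted p = 1.55e-08). It had covered 0.305% of the way at 24 h. Stmn1 had the highest level of all 51 genes at 72 h, with 49.7, 49.4 and 53.2, from a control mean of 6.62 and a 24 h mean of 5.71. Kif11 and Kif2c (spindle kinesins), Hmmr and Dlgap5 (spindle proteins) had 72 h means of 16.0, 3.73, 12.3 and 3.74, and all 3 libraries at 10 min and at 1 h listed Kif2c at an FPKM of 0.

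The genes of cytokinesis, the last step of the cycle, were up at 72 h. Prc1, which bundles microtubules between the separating chromosomes, went from 0.0713, 0.151 and 0.420 in control to 11.99, 18.5 and 14.7 (log2 fold change 3.72 ± 0.16 (SE), limma adjusted p = 1.80e-07). Racgap1 reached 12.6, 18.0 and 14.8 (log2 fold change 3.54 ± 0.13, adjusted p = 8.90e-08). Both were apart from every control mouse. The remaining genes, Anln (anillin), the kinesins Kif20a and Kif23 and the RhoA activator Ect2, had 72 h means of 7.91, 7.04, 4.72 and 4.47, against 0.159, 0.216, 0.155 and 0.0780 in control. Kif20a shares 29.3% and Prc1 11.1% of exon bases with a gene on the opposite strand.

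From 24 h to 72 h 50 of the 51 genes were called higher, against 29.7% of all genes tested, and 0 lower, against 13.5%. From 6 h to 72 h 51 of 51 were called higher, against 50.3%, and 0 lower, against 16.7%. Of the 31 genes that reached an FPKM of 1 before 72 h, 30 and 31 were called higher in these 2 comparisons. Set on 1 scale, as the share of the rise from control to 72 h in mean FPKM that was present at 24 h, the replication genes had a median of 25.6% and the 31 mitotic genes a median of 2.78%. Racgap1, at 5.86%, was the furthest along of the mitotic genes, and the lowest replication gene, Mcm7, was at 15.9%, so the 2 classes did not overlap. In the most advanced 24 h mouse, the second, the medians were 39.0% and 5.59%. Outside the replication genes, E2f1, Ccne1 (16.9%), Tyms and Ccnd1 (48.3%, of a small rise) were above 15.9%. The share is on the linear FPKM scale, so a gene with a larger rise has a smaller share for the same gain, and the difference between the roles was not tested. The shares of Cenpa and Cenpf, -109% and -76.1%, are negative because both were below control at 24 h.

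**Figure D5:**
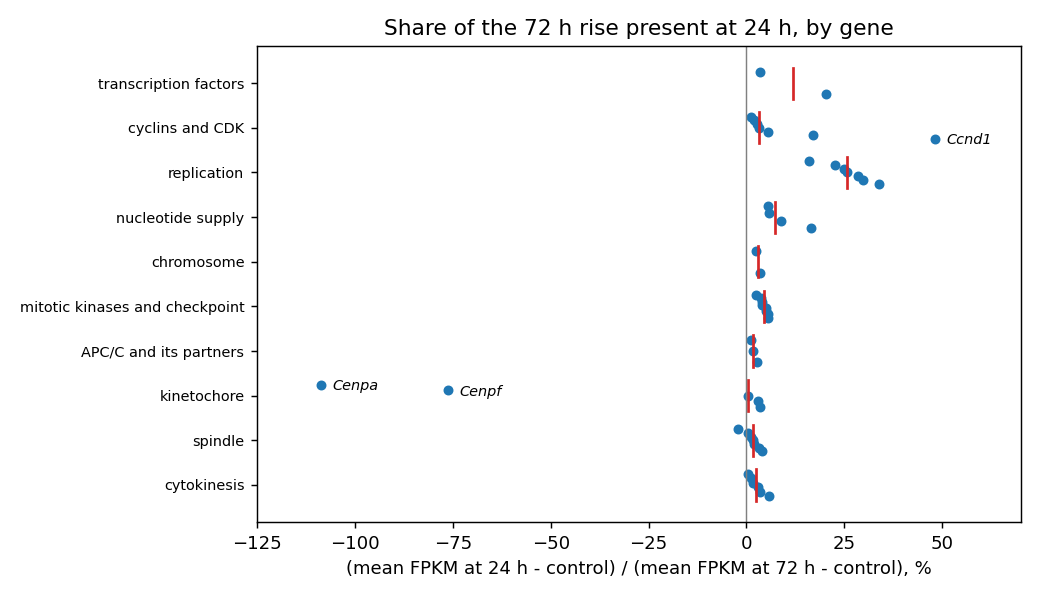
Share of the rise in mean FPKM from control to 72 h that was present at 24 h (x axis, percent), for each gene (blue dots) by role (y axis), with the median of the role (red line). Replication genes lie between 15.9% and 33.9%, mitotic genes at 5.86% or less, and Cenpa and Cenpf are below 0.

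The 72 h mice also had an order. The second had the highest level in 48 of the 51 genes, against 41.3% of all genes tested, and the first the lowest in 43, against 41.9%. In these 3 mice the fibroblast sum was 2124, 2860 and 2358, the macrophage and monocyte sum 1426, 1240 and 1527, and the cardiomyocyte sum 20970, 16794 and 16839. At 72 h the second mouse had the highest fibroblast sum and the lowest macrophage and monocyte sum. It also had the lowest cardiomyocyte sum and, marginally, the highest relative depth (1.32). At 24 h the second mouse had the highest fibroblast sum, the lowest neutrophil sum and the highest relative depth. Its macrophage and monocyte sum was then between those of the others. With 3 mice a time these traits cannot be separated, and the part of any cell type or of depth was not tested. Leaving out any 1 mouse left all 51 calls at 72 h in place.

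A further 142 genes of the cycle, in 6 lists, were read beside the 51. All were found, and 141 were tested. Among 18 regulators of G1 (D-type cyclins and their kinases, pocket proteins, E2F factors and Myc), 14 were called higher and 4 lower at 72 h (median log2 fold change 0.87), while the 24 h counts were 6 and 0. These and the counts that follow are read against the share of all genes called higher, 53.1% at 72 h (24.2% lower), or 26.2% for 24 h (11.4% lower). The 4 lower genes and the 24 h counts of this list are near that background. The lower genes were Ccnd2, Rbl2, E2f6 and Tfdp2, the last 3 named after their values were seen. Myc, a driver of growth and cell cycle entry, rose early, from 0.141, 0.174 and 0.163 in control to 4.30, 2.33 and 1.72 at 6 h, then 1.176, 1.74 and 1.39 by 72 h. Every 6 h mouse was above every control mouse, with a log2 fold change of 1.65 ± 0.22 (SE; limma adjusted p = 0.00314). Ccnd2, another D-type cyclin, was called lower at 6 h and at 72 h. It was at 19.5, 18.7 and 21.1 in control, 13.2, 10.4 and 13.0 at 6 h, then 15.1, 16.6 and 13.9 by 72 h, below all control mice at both times (log2 fold changes -0.66 ± 0.11 and -0.36 ± 0.08, adjusted p = 0.00640 and 0.00383). The largest changes at 72 h were those of the E2F factors E2f8 and E2f2 and the pocket protein gene Rbl1. E2f8 went from 0.450, 0.462 and 0.317 to 4.38, 6.10 and 4.99, E2f2 from 0.0351, 0.0119 and 0.0949 to 1.97, 2.61 and 2.58, and Rbl1 from 1.46, 1.40 and 1.40 to 5.77, 6.86 and 4.95.

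Of the 7 genes of CDK inhibitors, which hold the cycle back, 5 were called higher and 1 lower at 72 h. Cdkn1a (p21) was called from 1 h on, when 0 of the 51 genes were. Its FPKM was 10.3, 8.82 and 11.2 in control, 58.0, 31.5 and 24.9 at 1 h and 231, 168 and 123 in the 6 h mice. It then stood at 62.5, 44.7 and 146 at 24 h, with 54.3, 60.6 and 52.9 as its 72 h values. It was called higher at each of these times, with log2 fold changes of 1.73 ± 0.27, 3.93 ± 0.21, 2.77 ± 0.39 and 2.36 ± 0.09 (SE; limma adjusted p = 0.0401, 1.50e-04, 0.00527 and 1.19e-07). It was highest at 6 h. At 10 min all 3 mice were already above control, without a call (adjusted p = 0.217). Cdkn1c (p57) fell, from 34.3, 34.7 and 29.0 in control to 17.3, 15.9 and 21.6 at 6 h, then 9.25, 5.93 and 9.31 by 72 h (log2 fold change at 72 h -1.90 ± 0.15, adjusted p = 6.64e-06). Cdkn2b (p15) rose from 0.601, 0.598 and 0.296 to 3.67, 3.42 and 3.88 at 72 h (log2 fold change 1.64 ± 0.11, adjusted p = 1.81e-06).

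Genes of origin licensing and the fork, 39 of 40 of which were tested (all but Orc1), gave 21 higher and 1 lower (Dut) at 24 h, which became 34 and 1 by 72 h (median log2 fold change 1.38). Dut, named after its values were seen, makes the dUTPase and had log2 fold changes of -0.52 ± 0.11 at 24 h and 0.22 ± 0.08 by 72 h. Uhrf1, which keeps DNA methylation through replication, Dbf4, the activator of the origin kinase, and Cdt1, which loads the Mcm ring, changed most at 72 h. Uhrf1 was already up at 24 h, from 0.172, 0.185 and 0.305 to 1.08, 2.71 and 1.87, and reached 6.17, 9.05 and 6.49 (log2 fold change at 72 h 2.74 ± 0.13 (SE), limma adjusted p = 3.42e-07). Dbf4 went from 0.329, 0.402 and 0.846 to 6.34, 9.34 and 7.28 and Cdt1 from 0.790, 0.792 and 0.663 to 7.83, 9.41 and 9.54 at 72 h (log2 fold changes 2.50 ± 0.16 and 2.50 ± 0.10). The gene called lower at 72 h was Gmnn, geminin, the inhibitor of Cdt1, and it is named here after its values were seen. Gmnn was at 45.9, 45.2 and 43.9 in control and 26.7, 27.3 and 26.3 at 72 h (log2 fold change -0.73 ± 0.06, adjusted p = 5.76e-06), below control in every 72 h mouse while Cdt1 was above.

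In the list of G2/M switch, APC/C and securin genes 9 of 30 were called higher at 24 h and 1 lower, and the 72 h counts were 26 and 3. The 24 h share is near the 26.2% of all genes. Mad2l1, of the spindle checkpoint, Cks1b, a CDK subunit, and Ttk, a checkpoint kinase, changed most. Mad2l1 went from 2.16, 2.33 and 2.06 to 17.4, 23.9 and 22.3 at 72 h, Cks1b from 0.966, 1.303 and 1.35 to 10.4, 12.5 and 13.5, and Ttk from 0.241, 0.0930 and 0.0273 to 4.202, 5.88 and 5.18. The 3 lower genes were Wee1, Pttg1 and Lin52, seen only once the values were read. Pttg1, securin, which holds back separase until anaphase, was at 53.9, 53.8 and 51.1 in control, 36.7, 34.4 and 26.2 at 24 h, then 24.95, 20.2 and 21.9 by 72 h (log2 fold change at 72 h -1.21 ± 0.08 (SE), limma adjusted p = 2.26e-06), without overlap at either time. All 34 other kinetochore and spindle genes and all 13 condensin and cohesin genes were called higher at 72 h, and 6 and 2 of them at 24 h, when Spc24, again named after its values were seen, was called lower (-0.77 ± 0.20). The spindle genes Aspm, Spag5 and Ckap2l led the former. Aspm went from 0.117, 0.229 and 0.363 to 14.3, 22.1 and 16.7, Spag5 from 0.0761, 0.117 and 0.103 to 8.04, 12.1 and 9.22, and Ckap2l from 0.0431, 0 and 0.116 to 7.14, 8.80 and 8.16. Among the condensin genes Ncapg2 went from 0.694, 0.599 and 0.657 to 13.0, 16.4 and 16.0, Ncapg from 0.0632, 0 and 0 to 5.09, 7.48 and 6.05, and Smc2 from 0.616, 0.620 and 0.721 to 7.82, 11.2 and 8.83. Scaling moved the later counts: with quantile normalization 26 of 39 origin and fork genes, 22 of 30 G2/M genes, 32 of 34 kinetochore and spindle genes and 9 of 13 condensin and cohesin genes were called higher at 72 h, and at 24 h the counts were 9 of 39, 1 of 30, 2 of 34 and 2 of 13.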

How the data were processed

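Per the labels and the study's methods, reads of 150 bases were trimmed with cutadapt 1.18, aligned to mm10 with HISAT2 2.1.0 and turned by the authors into FPKM per gene with StringTie 1.3.4d. The annotation is not given in the sources used here. Columns of all 18 mice were used, and 0 pairs of libraries were identical. From the deposited FPKM, genes at 1 or more in at least 1 mouse (13333) were kept. Each of 8 comparisons was fitted on its own 6 mice as log2(FPKM + 1) with limma 3.58.1 (R 4.3.3; eBayes with a variance trend), with a two-sided test, and a gene was called at a Benjamini-Hochberg p under 0.05, adjusted across the whole table. The pseudocount understates fold changes of low genes. An exact permutation test of 3 against 3 mice cannot give a p under 0.1. The steps were tested on simulated data, with changes placed only in genes of higher level, so that test does not cover genes near an FPKM of 0. FPKM holds no read counts, so depth was only estimated relative to the first control mouse. The p-values set the difference of group means against the spread between mice, with the variance moderated across genes. That spread includes counting noise, which cannot be separated here. Values per mouse are given for genes called against control by 24 h, the 2 largest changes per role at 72 h, genes below control at one time and above it at another, and for each further list the 3 largest changes at 72 h besides Cdkn1a, Ccnd2 and Myc. The genes and lists were chosen with earlier results of these data known. Alternatives were another pseudocount, filter, scaling, fit, variance model and block, and each mouse left out. Positions are from GENCODE M21. Tables and figures were made with Python 3.11.15, numpy 2.4.6, pandas 2.3.3 and matplotlib 3.10.9.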

Additional observations from a re-analysis of the deposited data

Results flagged for a closer look

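Tk1, Cenpa and Cenpf were each called lower than control at one time and higher at 72 h, so that the effect of the infarction against the same control mice had opposite signs. The test of the difference itself is the comparison between the times. For Tk1 the log2 fold change of 72 h against 6 h was 3.76 (limma adjusted p = 4.02e-07). For Cenpa that of 72 h against 24 h was 0.94, and for Cenpf 1.45. In all 3 genes every mouse of the earlier time lay below, and every 72 h mouse above, all control mice. The call above control at 72 h was lost for Cenpa under median-of-ratios scaling and quantile normalization, and for Cenpf under quantile normalization, and the call below control at 6 h was lost for Tk1 without control mouse 1 or 2, without the first 6 h mouse, with all 18 mice in one fit and with the replicate number as a block.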

How the results depend on the processing

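All 51 calls higher at 72 h and both calls lower at 24 h held when any 1 mouse was left out. At 24 h against control, 11 genes were called higher, 7 with quantile normalization, 19 with all 18 mice in one fit, and 5 to 18 when single mice were left out. At 6 h, 0 genes were called higher, 1 with median-of-ratios scaling, 1 with quantile normalization, and 0 to 1 with single mice left out. The count lower at 6 h was 1, and 0 to 2 with single mice left out. At 24 h against 6 h, 6 genes were called higher, 2 without a filter, 2 with median-of-ratios scaling, 1 with quantile normalization, 22 with all 18 mice in one fit, and 0 to 10 with single mice left out. The 1 gene lower there became 0 without a filter, and 0 to 0 with single mice left out. Single values were checked for members called against control by 24 h and for selected calls at 72 h. Of these, 609 kept direction and call, 34 kept direction and lost the call, and 0 reversed. Changes without a call were not in this check, and some changed sign with quantile normalization. Examples are Anln at 6 h (log2 fold change 0.050, then -0.057) and Nusap1 at 24 h (0.056, then -0.145). The cause was not tested. Without read counts, genes near an FPKM of 0 cannot be given a counting error, which bears on the 39 genes with a control mean under 1.

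With the replicate number as a block, 0 genes were called lower at 6 h, and at 24 h against 6 h 0 were called higher and 0 lower. Whether the numbers pair the mice cannot be settled from 3 mice a group. In none of the 8 comparisons did all 3 same-numbered pairs correlate above 0.1. Single pairs did, with 0.415 for number 2 at 24 h against 6 h and 0.317 for number 1 at 72 h against 24 h. At 24 h against control the block left 11 calls higher and 2 lower. At most 2 of the same-numbered pairs correlated best with their own number.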
